A study of Mus musculus with 12 samples.

Results

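RNA of α4β7- CD22- eosinophils from the mouse SI was compared with the average of the subsets on either side of it, α4β7+ and CD22+, to find the genes whose level in this intermediate subset departed from the mean of the ends. The study took α4β7+, α4β7- CD22-, and CD22+ cells as approximately younger, intermediate, and older eosinophils, so the comparison asks which genes peak or dip in the middle and which change mostly before it or mostly after it. All 12 libraries entered, 4 from each subset, and 15249 of the 36047 genes in the table had a mean normalized count above 10 and were tested.

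The mice were wild type C57BL/6J females, and cells that were live, CD45+, CD11b+, Siglec-F+, MHCII-, and Ly6G- were taken by flow sorting from the proximal SI, out of its lamina propria, as α4β7+, α4β7- CD22-, and CD22+ subsets. No agent or diet differed between the subsets and the labels give no age. Each library pooled the cells of a pair of mice, so the spread between libraries is the spread between pools. The order of the subsets is an order of surface markers and stands for the age of the cells only approximately.

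Eosinophils are granulocytes that leave the bone marrow nearly mature and enter the lamina propria of the SI in the absence of infection, where they live longer than in blood. The integrin α4β7 binds MAdCAM-1 on the venules of the gut and marks cells that arrive there, and CD22 is an inhibitory lectin that binds sialic acid and is best known from B cells. The sort separates cells that carry the first, neither, or the second.

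The normalized counts of a library summed to between 14286474 and 16915755. A single read was worth between 0.852 and 1.159 normalized counts, so that 3 reads, taken as the floor of detection, came to between 2.56 and 3.48 normalized counts, and both figures are approximate. Itgb7, the β7 chain of the sorted integrin, stood at mean normalized counts of 2526 ± 520 in α4β7+ cells, 220 ± 81.0 in the intermediate subset, and 156 ± 86.5 in CD22+ cells (SD, n = 4 for each). Cd22 rose from 1115 ± 175 through 4462 ± 934 to 13334 ± 1588 (SD, n = 4 for each). The required gate genes Ptprc (CD45), Itgam (CD11b), and Siglecf departed from the mean of the ends by at most 0.0728 on the log2 scale. Of the longest Itgam transcript 73.8% is shared with other genes such as the overlapping Gm49368, and of that of Cd22 18.3% with genes such as Gm29439.

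Each departure was the mean log2(normalized count + 1) of the intermediate subset minus the average of the corresponding means of α4β7+ and CD22+, so that 0 is the midpoint of the ends on the log2 scale. A gene was called when its adjusted p in limma (Benjamini-Hochberg, over all genes tested) was 0.05 or less, with a departure of at least 1.5-fold (0.585 on the log2 scale). By this rule 40 genes were higher in the intermediate subset than the mean of the ends (0.262% of the genes tested) and 56 were lower (0.367%), 96 in all (0.63%). By the adjusted p alone 102 genes were higher (0.669%) and 85 lower (0.557%), and 1909 genes (12.5%) had an unadjusted p under 0.05. The median departure over all genes was 0.00381. Where a called gene lay relative to each end was then read from the subset means with the same 1.5-fold limit, without a further test. A gene past the limit from α4β7+ but not from CD22+ was named early, and a gene past it from CD22+ but not from α4β7+ was named late. A gene past it from both was named graded when its level lay between the ends, and a peak or a dip when it lay outside them.

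Most called genes had changed early. Of the 96, 32 were early rises and 36 early falls, 7 were graded rises and 5 graded falls that lay nearer to CD22+, 14 were dips, 1 was a peak, and 1 was a late rise, with no late fall. The rule reads the subset means alone, so the early classes hold 3 genes whose ends were not called apart: the early rises Gpr183 and H2ac18, which were above both ends in every intermediate library, and the early fall Gimap3. The plot of departure against the difference between the ends shows these classes.

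**Figure D1:**
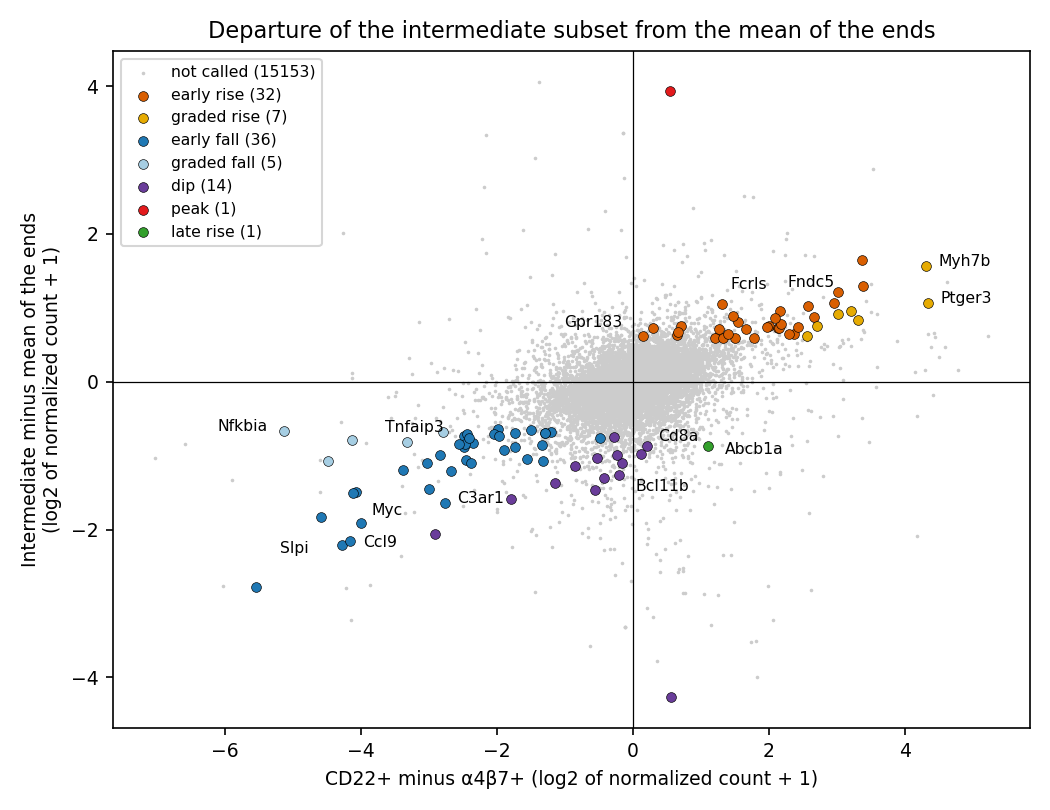
Each point is a gene; the horizontal axis is the CD22+ minus α4β7+ difference and the vertical axis the departure of the intermediate subset from the mean of the ends, both on the scale of log2(normalized count + 1). The 96 called genes are coloured by class, with the 41 early or graded falls at the lower left, the 39 early or graded rises at the upper right, and the 14 dips below the middle.

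Myc, a transcription factor of growth and proliferation (chromosome 15, 61985391 to 61990374, GRCm38), had normalized counts of 647, 644, 499, and 807 in α4β7+, 46.4, 54.5, 36.6, and 32.9 in α4β7- CD22-, and 30.9, 71.6, 27.4, and 39.1 in CD22+ libraries. The intermediate and CD22+ libraries overlapped, and all 8 were below the α4β7+ libraries. Its departure was -1.91 ± 0.24 on the log2 scale (SE, limma adjusted p = 0.00108). Slpi encodes a secreted inhibitor of leukocyte proteases (chromosome 2, 164354070 to 164389095). It had normalized counts of 476, 517, 274, and 404 in α4β7+, 22.7, 12.5, 20.4, and 22.8 in α4β7- CD22-, and 30.99, 16.4, 16.1, and 19.9 in CD22+ libraries. Again the CD22+ libraries stood where the intermediate ones did, and the departure was -2.21 ± 0.25 on the log2 scale (SE, limma adjusted p = 0.000682).

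C3ar1, the receptor for the complement fragment C3a (chromosome 6, 122847138 to 122856161), had normalized counts of 451, 379, 500.5, and 511 in α4β7+, 45.3, 46.7, 76.3, and 59.7 in α4β7- CD22-, and 38.2, 73.2, 89.3, and 78.7 in CD22+ libraries. The intermediate libraries were all below the α4β7+ libraries and overlapped the CD22+ libraries, with a departure of -1.63 ± 0.22 on the log2 scale (SE, limma adjusted p = 0.00171). It was 1 of 3 called among 30 chemoattractant receptor genes, and the others, Ptger3 and Gpr183, were higher, beside 0.63% called among all genes tested. Ccl9, a chemokine that attracts myeloid cells through CCR1, fell from a mean normalized count of 446 ± 103 to 25.2 ± 13.0 and stood at 25.8 ± 13.8 in CD22+ cells (SD, n = 4 for each). Ccl9 thus had a departure of -2.15 ± 0.35 on the log2 scale (SE, limma adjusted p = 0.00619).

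Of 28 integrin and adhesion genes tested, 3 were called and all were lower, where 0.63% of all genes tested were called and 0.367% were lower. The median departure of the list was -0.0994, against 0.00381 over all genes. The same shares stand beside the counts for the lists that follow. Among them were Itgb7, with a departure of -1.51 ± 0.27, and Itgal, the α chain of LFA-1, with -0.70 ± 0.09 on the log2 scale (SE, limma adjusted p = 0.0144 and 0.000991). Itgal had mean normalized counts of 6909 ± 835 in α4β7+ cells, 2714 ± 174 in the intermediate subset, and 2823 ± 337 in CD22+ cells (SD, n = 4 for each), so its whole fall lay before the intermediate subset. Because α4β7 was used to sort the cells, the fall of Itgb7 shows that the gate separated the subsets and is no separate result. Itga4, the chain that α4β7 shares with other integrins, stepped by -0.34 and then by -0.13 on the log2 scale and was not called (departure -0.11 ± 0.06, SE, limma adjusted p = 0.486).

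NF-κB is held in the cytoplasm by IκB proteins, which it induces in turn, so that its inhibitors are also among its targets. Of 35 NF-κB pathway genes tested, 2 were called, both lower, and both were inhibitors, beside 0.63% called and 0.367% lower among all genes tested. Tnfaip3 encodes A20, a ubiquitin-editing enzyme that limits NF-κB signaling (chromosome 10, 19000910 to 19015657). Its normalized counts were 24049, 23636, 23424, and 25600 in α4β7+, 6862, 5409, 6933, and 5537 in α4β7- CD22-, and 4577, 4630, 4057, and 4028 in CD22+ libraries. The 3 subsets did not overlap, and the intermediate libraries lay much nearer to the CD22+ libraries, with a departure of -0.73 ± 0.08 on the log2 scale (SE, limma adjusted p = 0.000419). Nfkbia encodes IκBα (chromosome 12, 55489410 to 55492647). It had normalized counts of 17428, 16325, 15999, and 14785 in α4β7+, 1877, 1627, 1704, and 1662 in α4β7- CD22-, and 447, 409, 418, and 591 in CD22+ libraries. It fell at both steps, by 3.23 and then by 1.89 on the log2 scale, and its departure was -0.67 ± 0.09 (SE, limma adjusted p = 0.00186). The other 33 pathway genes were not called, and the median departure of the list was -0.0460.

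The promoters of these inhibitors are printed because they belong to the called genes of the NF-κB list. They are the RefSeq windows of GRCm38.p6, from 250 bases before to 50 bases after an annotated start, written 5′ to 3′ on the strand of the gene, with the match to the κB consensus, the binding motif of NF-κB, in capitals, here on the opposite strand. The Tnfaip3 window is chr10:19015361-19015660, minus strand, and the Nfkbia window is chr12:55492598-55492897, minus strand.
Tnfaip3: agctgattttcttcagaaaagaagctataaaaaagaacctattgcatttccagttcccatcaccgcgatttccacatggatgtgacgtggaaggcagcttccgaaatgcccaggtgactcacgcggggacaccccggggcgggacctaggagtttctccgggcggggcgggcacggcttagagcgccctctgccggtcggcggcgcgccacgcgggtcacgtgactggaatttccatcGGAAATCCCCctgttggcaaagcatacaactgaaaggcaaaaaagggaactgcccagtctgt
Nfkbia: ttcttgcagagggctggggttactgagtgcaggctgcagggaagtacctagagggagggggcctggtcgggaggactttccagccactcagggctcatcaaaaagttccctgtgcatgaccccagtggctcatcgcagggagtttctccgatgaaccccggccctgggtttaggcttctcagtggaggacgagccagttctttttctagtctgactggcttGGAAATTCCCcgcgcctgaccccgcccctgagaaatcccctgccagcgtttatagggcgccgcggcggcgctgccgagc

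The motif began at position -12 from the annotated start in the Tnfaip3 window and at -29 in the Nfkbia window. These starts are those of RefSeq. The Tnfaip3 gene as placed above begins at 19015657 on the minus strand, so most of its window and the motif lie inside that gene. A second annotated start of Tnfaip3 had no match in its window. Of the 41 called early or graded falls, 30 had a window in the table, and 6 of these (20%) held the consensus on either strand: Tnfaip3, Nfkbia, Ccl9, Cxcl10, Hpn, and Rps19. Of the 28 called early or graded rises with a window, 2 held it, Cyp1b1 and Vav2. Of the 11129 tested genes with a window 8.05% held it, as did 12 of 28 NF-κB pathway genes and 5.8% of all 32851 windows of that length. The cores TNGCGTG (AHR) and TCACCCC (SREBP), searched on both strands, were in 8.68% and 5.88% of the tested genes with a window, in 2 and 2 of the 30 falls, and in 1 and 3 of the 28 rises. These motifs were chosen after the called genes were known, and a match is a run of letters and not a shown binding site.

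Further genes called lower were in the lists of immediate early genes and of chemokines. Of 38 immediate early genes tested, Myc and Dusp2, a phosphatase of MAP kinases, were called, and Dusp2 had mean normalized counts of 807 ± 176 in α4β7+ cells, 108 ± 23.7 in the intermediate subset, and 76.4 ± 17.2 in CD22+ cells (SD, n = 4 for each; departure -1.19 ± 0.19 on the log2 scale, SE, limma adjusted p = 0.005). Of 21 chemokine genes tested, 3 were called and all were lower: Ccl9, Cxcl10, a ligand of CXCR3, and Ccl5, which dipped and is given with the dips. Cxcl10 stepped by -2.29 and then by -0.17 on the log2 scale (departure -1.06 ± 0.21, SE, limma adjusted p = 0.022). The call of Cxcl10 was lost without α4β7- CD22- replicate 1, 3, or 4, in limma without the trend, and with the level of T cell markers as a covariate.

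Of 30 cytokine and growth factor genes tested, Osm, a cytokine of the IL-6 family, was lower and Il27, the p28 subunit of IL-27, was higher. Osm had mean normalized counts of 507 ± 80.9 in α4β7+ cells, 90.5 ± 16.2 in the intermediate subset, and 49.4 ± 3.26 in CD22+ cells (SD, n = 4 for each), a graded fall with a departure of -0.82 ± 0.15 on the log2 scale (SE, limma adjusted p = 0.0144). Il27 rose from 140 ± 24.3 to 393 ± 60.6 and reached 482 ± 60.1 (SD, n = 4 for each; departure 0.59 ± 0.13 on the log2 scale, SE, limma adjusted p = 0.0469). The call of Il27 was lost in 10 of the 12 fits that left out 1 library and in 7 of 12 other alternatives.

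Ctsd, the lysosomal protease cathepsin D, was the only one of 35 lysosomal genes called (departure -0.65 ± 0.09 on the log2 scale, SE, limma adjusted p = 0.00238), and 38% of its longest transcript is shared with the overlapping gene Gm49369. Ikzf2, which encodes the transcription factor Helios, was the only one of 20 lineage transcription factors called, with a departure of -0.69 ± 0.15 (SE, limma adjusted p = 0.033). AB124611 was a graded fall with mean normalized counts of 872 ± 129, 86.4 ± 8.47, and 38.0 ± 6.16 in the order of the subsets (SD, n = 4 for each; departure -1.07 ± 0.14, SE, limma adjusted p = 0.00177).

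Among the rises, Fndc5, which encodes the membrane precursor of irisin (chromosome 4, 129136999 to 129144593), had normalized counts of 380, 357, 256, and 316 in α4β7+, 1577, 1634, 1478, and 1771 in α4β7- CD22-, and 1947, 1742, 1805, and 2286 in CD22+ libraries. All intermediate libraries were above all α4β7+ libraries, and the highest of them reached into the range of the CD22+ libraries. The departure was 1.02 ± 0.11 on the log2 scale (SE, limma adjusted p = 0.000419). Nmur1, the receptor through which the neuropeptide neuromedin U acts on immune cells of the gut, rose from a mean of 232 ± 55.4 to 702 ± 86.1 and stood at 630 ± 49.2 in CD22+ cells (SD, n = 4 for each; departure 0.89 ± 0.14, SE, limma adjusted p = 0.0058). Fut1, a fucosyltransferase, had a departure of 1.22 ± 0.25, and Cacng8, an auxiliary subunit of glutamate receptors, one of 0.96 ± 0.17 on the log2 scale (SE, limma adjusted p = 0.0251 and 0.0124).

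Of 23 genes of the aryl hydrocarbon receptor (AHR) and retinoid pathways tested, 1 was higher and 1 lower. Cyp1b1, a cytochrome P450 induced by AHR (chromosome 17, 79701537 to 79715061), had normalized counts of 501, 581, 403, and 428 in α4β7+, 2628, 2820, 2339, and 3548 in α4β7- CD22-, and 4338, 4502, 3774, and 5021 in CD22+ libraries. The 3 subsets did not overlap, and the first step, of 2.56, was larger than the next, of 0.65 on the log2 scale, giving a departure of 0.96 ± 0.12 (SE, limma adjusted p = 0.000991). Against the arithmetic mean of the ends Cyp1b1 had a departure of 0.20 and was not called (limma adjusted p = 0.519). Rarg, a retinoic acid receptor, did the opposite and early, with means of 287 ± 64.6, 84.6 ± 18.6, and 84.8 ± 16.3 in the order of the subsets (SD, n = 4 for each; departure -0.88 ± 0.18 on the log2 scale, SE, limma adjusted p = 0.0309).

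Further graded rises were Myh7b, a myosin heavy chain, Ptger3, the EP3 receptor for prostaglandin E2, and Notch4, a receptor of the Notch family. Myh7b had mean normalized counts of 20.01 ± 3.76, 279 ± 70.9, and 413 ± 36.5 in the order of the subsets (SD, n = 4 for each; departure 1.56 ± 0.18, SE, limma adjusted p = 0.00064). Ptger3 rose from 57.7 ± 26.0 to 522 ± 111 and to 1117 ± 161 (SD, n = 4 for each; departure 1.06 ± 0.21, SE, limma adjusted p = 0.0251). These departures depend on the log2 scale: against the arithmetic mean of the ends Ptger3 lay lower, by -0.18 on the log2 scale, and was not called. On that midpoint the calls of Myh7b, Notch4, Fndc5, Fut1, Cacng8, Il27, and Idi1 were lost too, with departures from 0.24 (Notch4) to 0.58 (Cacng8). On the log2 midpoint, the call of Ptger3 was lost without α4β7- CD22- replicate 1, 2, or 4, in limma without the trend, and with the level of T cell markers as a covariate.

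Cells make cholesterol from acetyl-CoA through the mevalonate pathway, whose genes are driven together by SREBP-2 when sterols are low. Of 25 cholesterol synthesis genes tested, 1 was called, Idi1, the isomerase that makes dimethylallyl diphosphate. Idi1 (chromosome 13, 8885501 to 8892451) had normalized counts of 1001, 704, 468, and 656 in α4β7+, 2347, 2905, 2378, and 2362 in α4β7- CD22-, and 3499, 3654, 2771, and 2572 in CD22+ libraries. All intermediate libraries were above all α4β7+ libraries, and the highest overlapped the CD22+ libraries; the departure was 0.78 ± 0.16 on the log2 scale (SE, limma adjusted p = 0.0251), and 33.3% of its longest transcript is shared with Gm13502. The median departure of the list was 0.333, against 0.00381 over all genes, and its median steps were 0.934 and then 0.307 on the log2 scale. The other 24 members were not called singly.

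The 82 ribosomal protein genes had a median departure of -0.159, with median steps of -0.619 and then -0.325 on the log2 scale, and 1 of them was called. That was Rps19, with mean normalized counts of 3103 ± 870, 918 ± 111, and 783 ± 155 in the order of the subsets (SD, n = 4 for each; departure -0.74 ± 0.16, SE, limma adjusted p = 0.0328). No member of 7 further pathway lists was called. Departures on the log2 scale ran from -0.603 to 0.118 over 22 glycolysis genes, with Hk3 the farthest from 0. They ran from -0.687 to 0.346 over 78 genes of oxidative phosphorylation (Atp5g2), from -1.18 to 0.651 over 51 genes of DNA replication and the cell cycle (Ccnb1), and from -0.841 to 0.310 over 35 heat shock and ER stress genes (Ddit4). In the remaining 3 lists they ran from -0.700 to 0.573 over 45 interferon response genes (Iigp1), from -1.32 to 0.397 over 16 genes of the BCL2 family (Hrk), and from -0.659 to 0.337 over 18 circadian clock genes (Nr1d1). The plot of medians by gene list gives both steps for each.

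**Figure D2:**
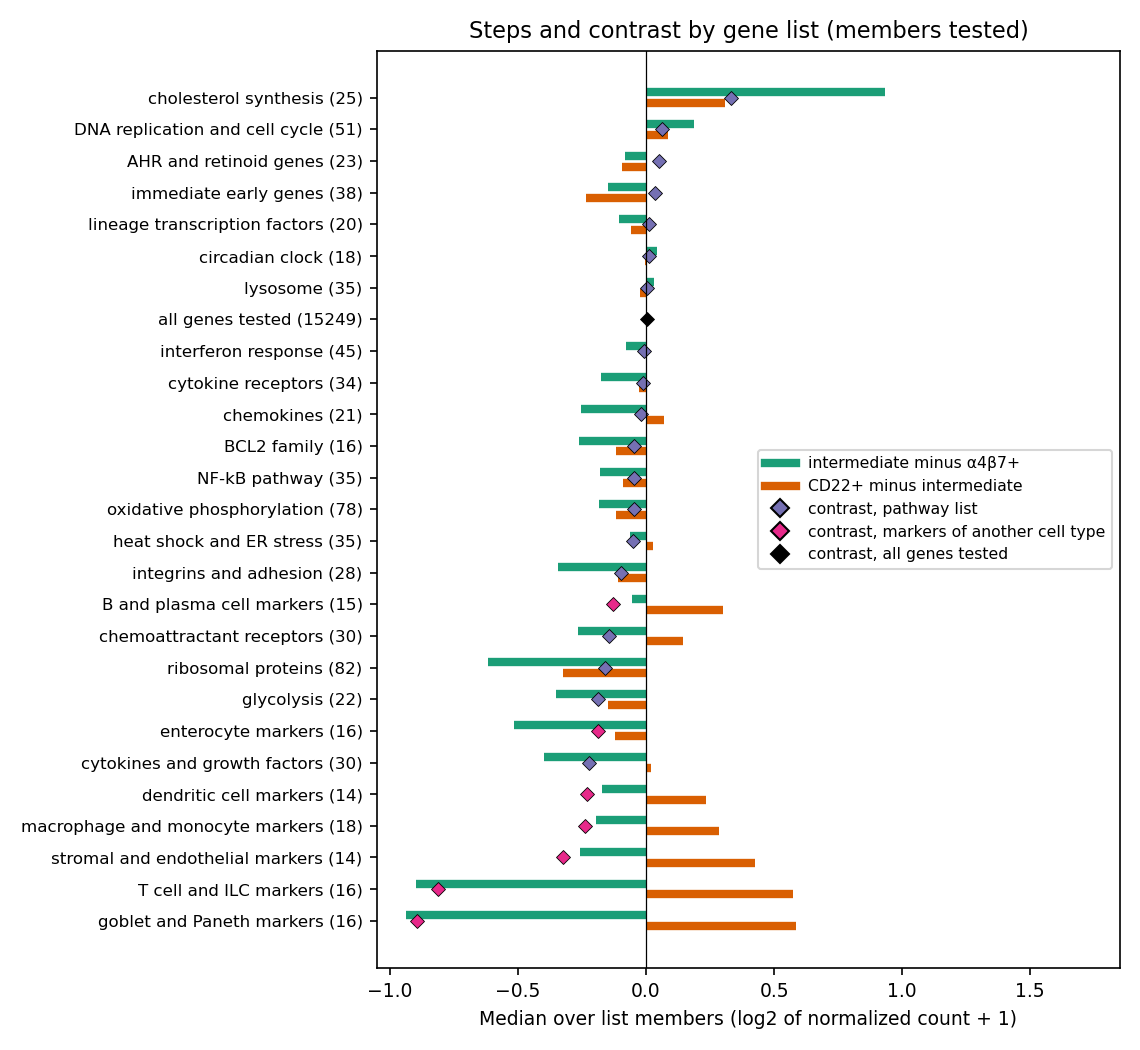
Bars give the median log2 step from α4β7+ to the intermediate subset and from there to CD22+ over the members tested of each gene list, and diamonds the median departure from the mean of the ends, on the scale of log2(normalized count + 1). Cholesterol synthesis has the highest median departure (0.333) and the goblet and Paneth and the T cell and ILC markers the lowest (-0.893 and -0.812).

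The genes called between the ends gave a wider view of early and late change. At the same thresholds 854 genes rose from α4β7+ to CD22+ (5.6% of those tested) and 975 fell (6.39%). For each, the position of the intermediate subset was the share of the change on the log2 scale already made there, 0% at the α4β7+ mean and 100% at the CD22+ mean. The median position was 72.4% over the 1829 genes, 76.0% over the rises and 69.9% over the falls. In 1561 genes (85.35%) the intermediate subset was past the midpoint, in 211 (11.54%) it was past the CD22+ mean, and in 15 it had made less than 10% of the change. The same libraries give the position and the difference between the ends, so these are not independent.

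Taken library by library, the position was an average over these genes weighted by the square of the log2 change between the ends. Genes with large changes therefore count most in it, and it is not a median. It was 73.14%, 73.48%, 69.28%, and 73.7% in the 4 intermediate libraries, with a mean of 72.4% ± 2.09 (SD, n = 4). All were well past the midpoint. Read on the count scale in place of the log2 scale, the median position was 67.32% for the rises and 78.08% for the falls, and 74.47% and 91.69% of the genes were past the midpoint. The direction was therefore the same on either scale. The order of rises and falls was not: the rises had the higher median position on the log2 scale and the falls on the count scale, so no order is given. The weighted position by library, on the log2 scale, had a mean of 71.61% ± 4.37 for the rises and 73.03% ± 0.954 for the falls (SD, n = 4 for each). It is an unlike measure and is not set against the medians.

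**Figure D3:**
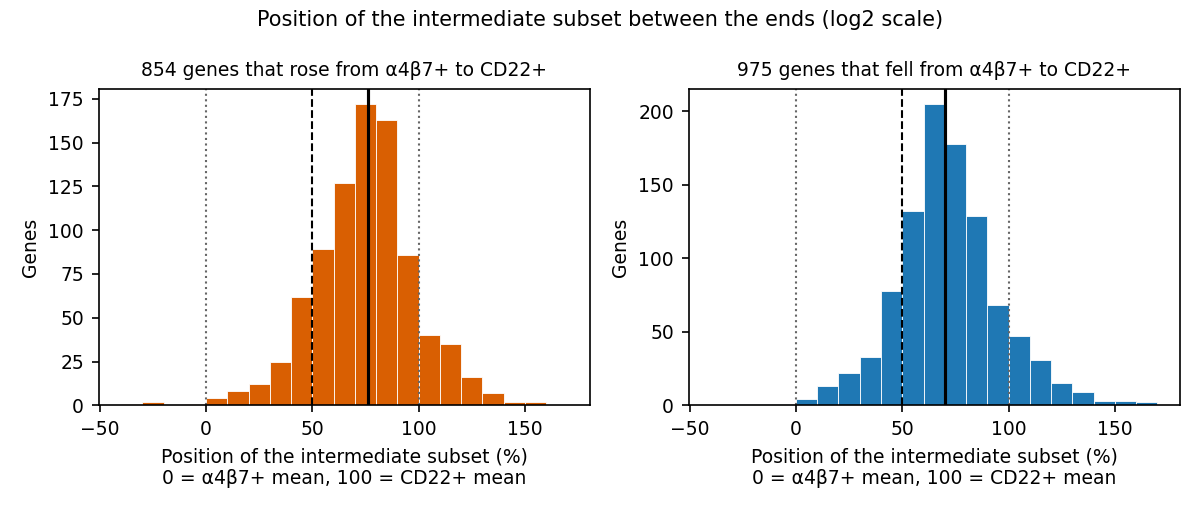
Histograms of the position of the intermediate subset, in percent of the log2 change from the α4β7+ mean (0) to the CD22+ mean (100), for the 854 rises and 975 falls, with 1 gene beyond the axis drawn in the end bin. The solid lines are the medians (76.0% and 69.9%), and the dashed lines the midpoint, with most genes to the right of it.

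Counts by gene list follow beside the 1561 of 1829 genes (85.35%) past the midpoint in all, with no test between lists. Of the 25 cholesterol synthesis genes, 21 were called between the ends and 20 of these were past the midpoint, with a median position of 79.5%. Of the 82 ribosomal protein genes, 73 were called and 66 were past it, with a median of 67.6%. Of the chemoattractant receptors 12 of 13 were past it (median 83.8%), of the NF-κB genes 14 of 15 (71.4%), and of the immediate early genes 13 of 15 (67.5%). The BCL2 family, which sets survival, had 2 of 6 past it and a median position of 43.8%, and the eosinophil markers had 6 of 9 and a median of 53.4%. The summed level of the eosinophil markers did not overlap between subsets, from 94064 to 109912 in the α4β7+ libraries through 76715 to 83086 in the intermediate to 58951 to 64270 in the CD22+ libraries, and none of the 15 was called.

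No gene passed the test of a peak, which took the larger of the one-sided p-values for being above each end, at an adjusted p of at most 0.05 in limma. The smallest adjusted p was 0.315, and 205 genes (1.34%) had an unadjusted p under 0.05. Every intermediate library was above every other library in 50 genes (0.328%), and 4 of these were called higher than the mean of the ends: Gpr183, Fcrls, H2ac18, and the low gene Gm12669. Gpr183, EBI2, is a receptor for oxysterols that positions leukocytes in lymphoid tissue and gut (chromosome 14, 121952551 to 121965195). Its normalized counts were 1056, 964, 978, and 1206 in α4β7+, 1636, 1623, 1912, and 1648 in α4β7- CD22-, and 1274, 1099, 1066, and 1226 in CD22+ libraries. The ends overlapped and the intermediate libraries stood above both, by 0.70 and 0.55 on the log2 scale. The departure was 0.62 ± 0.08 (SE, limma adjusted p = 0.00161), but the adjusted p for a peak in limma was 0.315. The call of Gpr183 was lost without α4β7- CD22- replicate 3, its highest library, and with the level of T cell markers as a covariate.

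Fcrls, an Fc receptor-like protein (chromosome 3, 87250758 to 87263738), had normalized counts of 867, 778, 590, and 487 in α4β7+, 2412, 2364, 1888, and 2087 in α4β7- CD22-, and 1584, 1685, 1789, and 1559 in CD22+ libraries. The intermediate libraries were above both ends, though within 1.5-fold of the CD22+ mean, so the gene is an early rise by the rule (departure 1.06 ± 0.13 on the log2 scale, SE, limma adjusted p = 0.000952). Il1r2, the decoy receptor of IL-1, was the only one of 34 cytokine receptor genes called and had means of 4384 ± 1378, 8623 ± 1368, and 6774 ± 883 in the order of the subsets (SD, n = 4 for each). Its intermediate and CD22+ libraries overlapped (departure 0.68 ± 0.15, SE, limma adjusted p = 0.0473). The call of Il1r2 was lost in 10 of the 12 fits that left out 1 library and in 6 of 12 other alternatives, and its departure was 0.14 with the level of T cell markers as a covariate. Among genes with the shape of a peak that were not called, Ccl4, a chemokine, had means of 449 ± 150, 982 ± 260, and 649 ± 188 (SD, n = 4 for each; departure 0.88 ± 0.23, SE, limma adjusted p = 0.087). Ccl4 was called only with the replicate number as a block (limma adjusted p = 0.0122). Chek2 and Gla followed with departures of 1.12 ± 0.37 and 0.66 ± 0.23 (SE, limma adjusted p = 0.189 and 0.22).

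No gene passed the corresponding test of a dip, in which the smallest adjusted p in limma was 1 and 223 genes (1.46%) had an unadjusted p under 0.05. Every intermediate library was below every other library in 42 genes (0.275%), of which 10 were called lower and were dips. Bcl11b, a transcription factor of the T cell lineage and of ILC2 (chromosome 12, 107910403 to 108003602), had normalized counts of 156, 165, 175, and 149 in α4β7+, 35.6, 83.3, 67.9, and 73.8 in α4β7- CD22-, and 122, 155, 100.1, and 199.5 in CD22+ libraries. The ends overlapped and the intermediate libraries were below both, with a departure of -1.26 ± 0.23 on the log2 scale (SE, limma adjusted p = 0.0144). Cd8a, the α chain of CD8, had normalized counts of 117, 258, 108, and 174 in α4β7+, 84.7, 78.1, 86.2, and 76.6 in α4β7- CD22-, and 172, 168, 136, and 202 in CD22+ libraries. Its ends were spread and the intermediate libraries lay below all of them (departure -0.98 ± 0.21, SE, limma adjusted p = 0.033). Ccl5, a chemokine that cytotoxic T cells make in quantity, had means of 324 ± 173, 98.6 ± 7.82, and 163 ± 17.1 (SD, n = 4 for each; departure -1.14 ± 0.24, SE, limma adjusted p = 0.0328). Beside these and Pou2f2, Cdc14b, and Defa3, given below, the called dips were Cd96, Ms4a4b, Gimap7, Fam160a2, Sh3bp4, Tox3, Ipo4, and Timm8a1. Of the 14, 1 gene, Cd8a, is on the list of T cell and ILC markers, which does not hold Bcl11b or Ccl5. The calls of Cd8a and Ccl5 were each lost in 8 of the 12 fits that left out 1 library, and that of Bcl11b in 0.

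Pou2f2, the transcription factor OCT-2 (chromosome 7, 25087344 to 25179726), had normalized counts of 220, 250, 165, and 232 in α4β7+, 132, 125, 143, and 106 in α4β7- CD22-, and 230, 266, 239, and 255 in CD22+ libraries. The intermediate libraries were again below all others (departure -0.87 ± 0.13, SE, limma adjusted p = 0.0047). Cdc14b, a phosphatase, was a dip with means of 154 ± 15.8, 84.0 ± 14.6, and 129 ± 24.4 (SD, n = 4 for each; departure -0.74 ± 0.16, SE, limma adjusted p = 0.033).

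Markers of T cells and ILCs were mostly low in the same subset. Their summed normalized count was 2389 to 3943 in the α4β7+ libraries, 1338 to 1984 in the intermediate libraries, and 1978 to 2616 in the CD22+ libraries, so that the highest intermediate library just reached the lowest CD22+ library, and none of the 16 markers found in the table was at 0 in any library. The mean on the log2 scale was lowest in the intermediate subset for 13 of the 16 (81.2%), against 24.8% of all genes tested, and the median departure of the list was -0.812. Gzma, a granule protease of cytotoxic cells, had means of 371, 89.8, and 142 in the order of the subsets, and Cd3e, a subunit of the T cell receptor complex, of 157, 69.8, and 132. Cd3d, another subunit of that complex, had means of 337, 361, and 365 and Gata3 of 32.3, 35.2, and 25.3, neither lowest there. In bulk RNA, fewer cells of a type and less RNA per cell cannot be told apart. When the level of these markers, as log2 of the sum, entered limma as a covariate, a choice made after the data were seen, 5 genes were called higher and 5 lower, 8 of them among the 96. Cd8a is itself part of that sum, and the sum differs between the subsets, so its part and the departure cannot be fully told apart. By shape in that fit, 9 of the called genes were early or graded, 1 was a peak, and 0 were dips. All 96 genes of the main fit kept their sign. The median size of the departure went from 0.822 to 0.839 over the 80 early or graded genes and from 1.2 to 0.885 over the 14 dips, while the median SE over all genes rose from 0.166 to 0.268.

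Markers of other cells that the gates should remove moved less evenly. The 16 goblet and Paneth cell markers tested were lowest in the intermediate subset in 11 cases (68.8%), with sums of 2130 to 5956, 1272 to 2756, and 1519 to 6041 in the order of the subsets. Defa3, a Paneth cell defensin outside the list, was a called dip (limma adjusted p = 0.0179) that was listed at 0 in 3 intermediate libraries and at 39.2 in replicate 2, against 35.2 to 44.4 in the α4β7+ and 38.4 to 87.4 in the CD22+ libraries, so that the subsets overlapped. The excluded gate genes, which are MHCII genes and Ly6g, were lowest there in 4 of 4 tested, with sums of 3297 to 5645, 3518 to 6525, and 3282 to 8815 that overlapped in all subsets. The stromal and endothelial markers were lowest there in 10 of 14, although their sum was highest there (13221 to 14248, against 11076 to 12587 and 12067 to 13142). Dendritic cell markers were lowest in 9 of 14, macrophage and monocyte markers in 10 of 18, B and plasma cell markers in 8 of 15, and enterocyte markers in 6 of 16. None of these lists held a called gene, and the 7 neutrophil, 2 mast cell and basophil, and 4 erythroid markers tested held none either. The part of these cells in the departures was not tested, beyond the covariate for T cells.

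**Figure D4:**
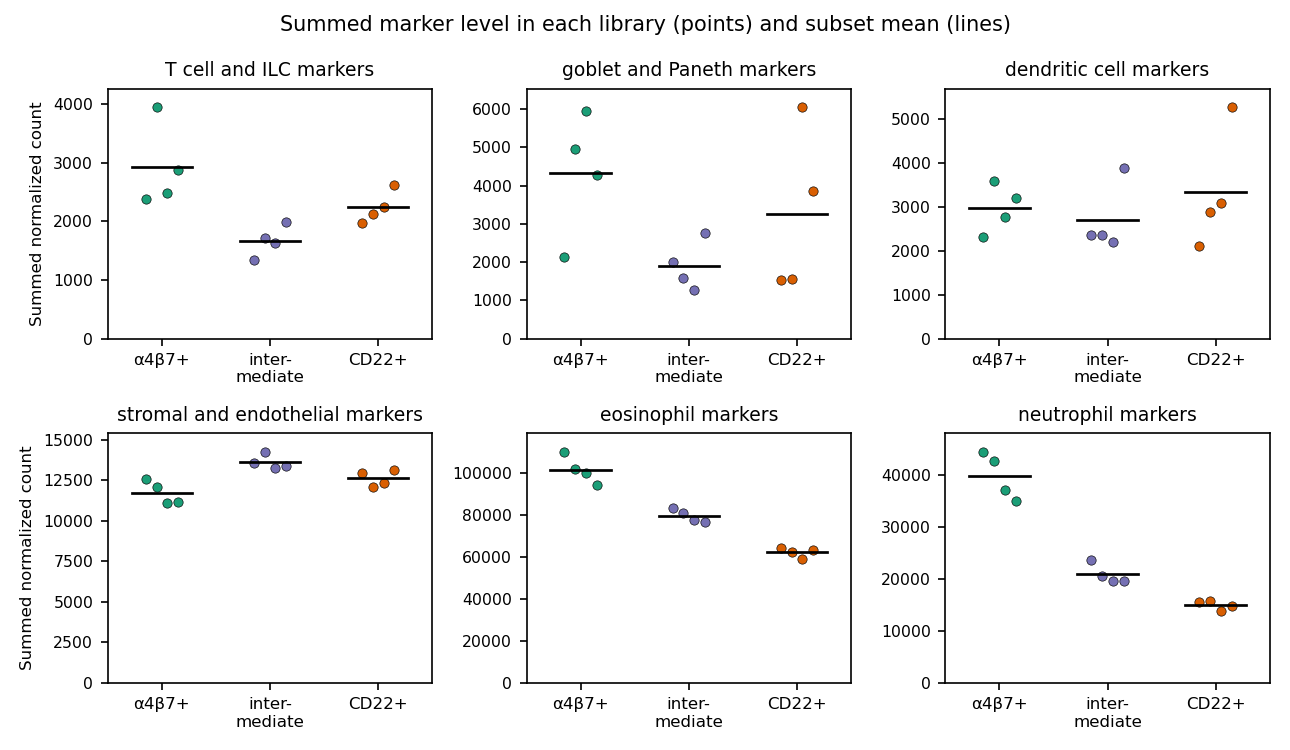
Summed normalized counts of 6 marker lists in each library (points) with subset means (lines). T cell and ILC markers were at 1338 to 1984 in the intermediate libraries, while the eosinophil and neutrophil sums were lower from each subset to the next.

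Among the 96 called genes, 1 changed late. Among the genes not called, by the same limits on the subset means and without a test, 395 had the shape of a late rise and 266 of a late fall, beside 1025 early rises and 1124 early falls. Abcb1a, the efflux pump P-glycoprotein (chromosome 5, 8660077 to 8748575), was the only called gene whose change lay after the intermediate subset. Its normalized counts were 136, 137, 114, and 146 in α4β7+, 74.9, 97.2, 142, and 124 in α4β7- CD22-, and 208, 276, 362, and 325 in CD22+ libraries. The first 2 subsets overlapped and the CD22+ libraries were above both (departure -0.87 ± 0.18 on the log2 scale, SE, limma adjusted p = 0.033), a call lost in 9 of the 12 fits that left out 1 library, without the trend, and with the T cell covariate, and 25.2% of its longest transcript is shared with its paralog Abcb1b. The next late rises by p, Slc12a7 and Zbtb26, had departures of -0.54 ± 0.16 and -0.44 ± 0.14 and were not called (SE, limma adjusted p = 0.144 and 0.153). The late falls with the smallest p, Tmem80, Cfap45, and Lilra6, had departures of 0.50 ± 0.13, 0.57 ± 0.16, and 0.18 ± 0.05 (SE, limma adjusted p = 0.0875, 0.118, and 0.127), and the whole longest transcript of Lilra6 is shared with other genes such as Pirb. The rule reads the subset means alone here too. In Tmem80 and Cfap45 every intermediate library was above both ends. Their CD22+ minus α4β7+ differences were only -0.18 and -0.05 on the log2 scale, so these 2 were high in the middle. The ends of Tmem80, Cfap45, Slc12a7, and Zbtb26 were not called apart.

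**Figure D5:**
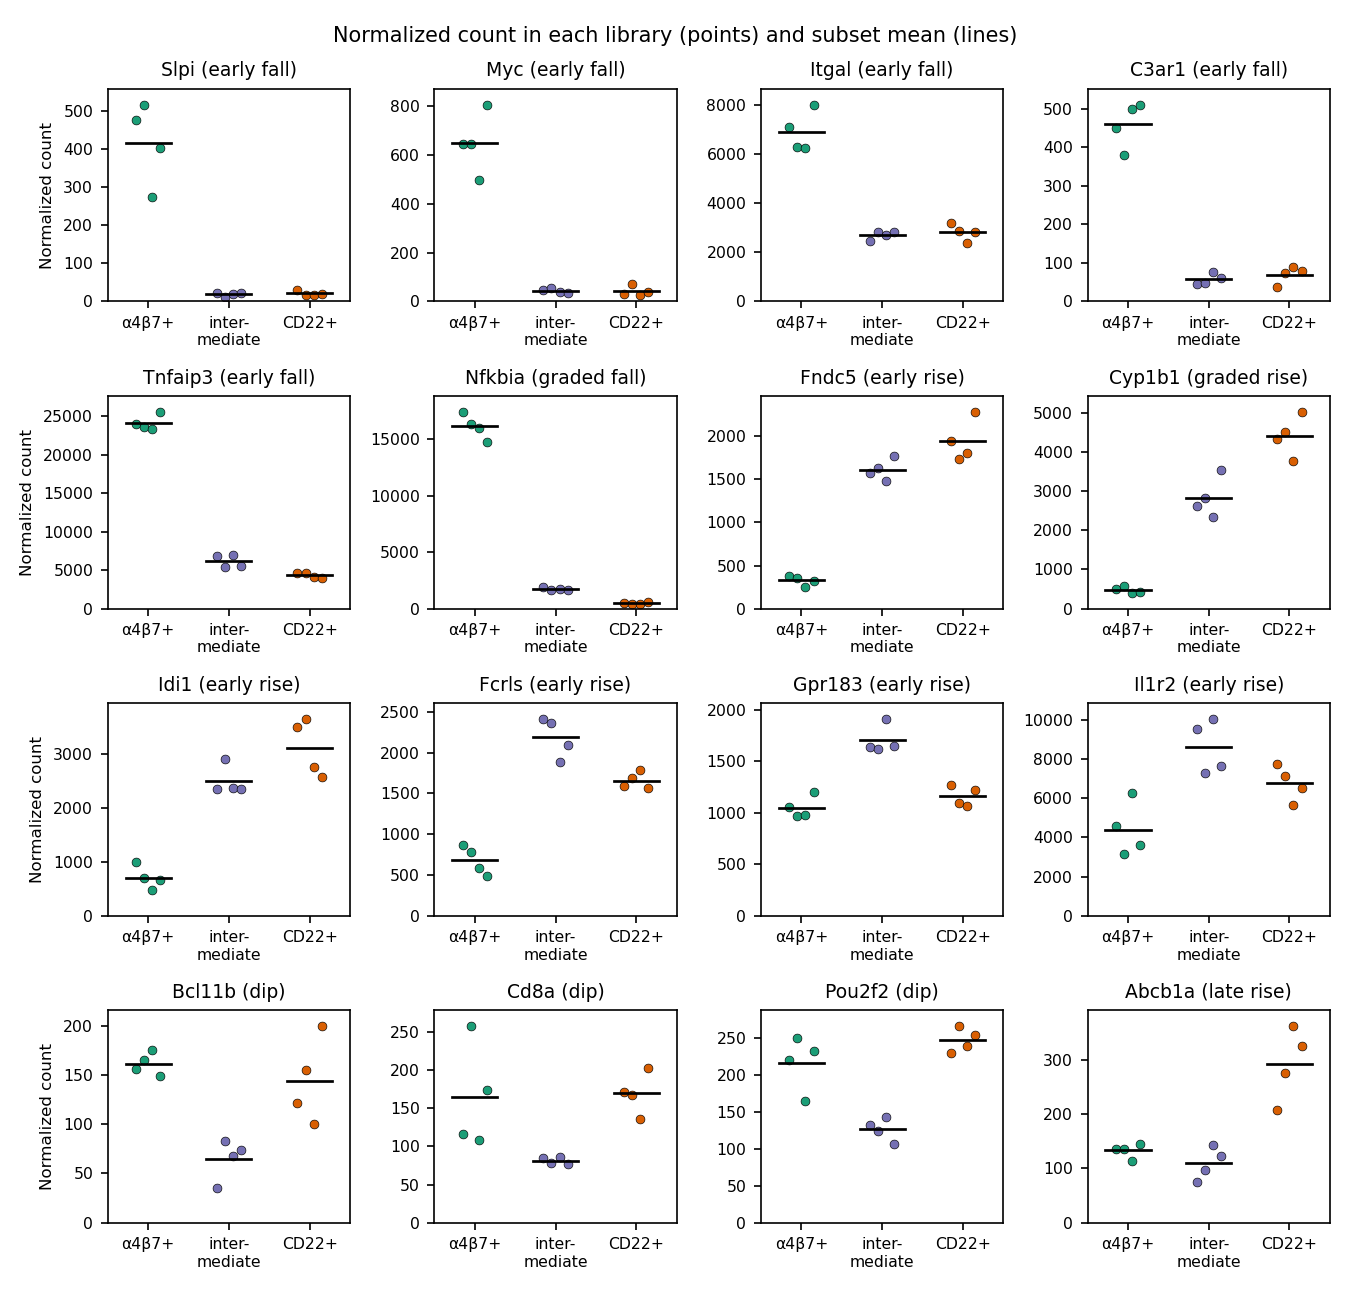
Normalized counts of 16 genes in each library (points) with subset means (lines), from early falls at the top to the late rise at the lower right. In Slpi the intermediate libraries (12.5 to 22.8) lie with the CD22+ libraries, in Gpr183 (1623 to 1912) above both ends, in Pou2f2 (106 to 143) below both, and in Abcb1a (74.9 to 142) with the α4β7+ libraries.

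How many genes were called rested on the intermediate libraries. Without α4β7- CD22- replicate 1, 23 genes were higher and 33 lower, and 48 of these were among the 96. Without replicate 2 of that subset the counts were 31 and 35, and without replicate 3 they were 29 and 36. Among the named genes, the calls of Cdc14b, Rarg, Rps19, and Ikzf2 were lost in 8, 7, 7, and 6 of the 12 fits that left out 1 library. That of Idi1 was lost without any 1 of the 4 intermediate libraries. Against the arithmetic mean of the ends in place of the mean of logs, 10 genes were higher and 140 lower, so the balance of the directions belongs to the log2 scale.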

How the data were processed

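Libraries of 12 sorted samples, each made from 3 ng of RNA with a stranded total RNA kit for small inputs, were trimmed with Trimmomatic 0.39, pseudoaligned with kallisto 0.46.1 (mm10, GRCm38), and normalized with DESeq2 1.38.2, per the labels and the submitters' processing notes. The values as deposited are this normalized signal, with library depth divided out by the authors; between 30.2% and 63.9% of the low values of a library lay within 5% of a whole read, so whole reads were not recovered and no count test was run. The approximate depth was 13857986 to 17321869 reads per library, and the floors cover counting error only.

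Genes with a mean normalized count above 10 were fitted with limma 3.58.1 (R 4.3.3) on log2(normalized count + 1), with 3 subset means and a trend of the variance. The pseudocount understates changes of low genes. The script was tested on simulated data. Genes named are the sort and gate genes; up to 5 per pattern with the largest departure, a symbol that is not provisional, and a mean of at least 100; where fewer than 3 were called, the 3 with the smallest p; and up to 4 called members, or else the most extreme member, of each of 33 gene lists. Genes outside this rule (Cd96, Ms4a4b, Gimap7, Hpn, Vav2, Defa3, H2ac18, Gm12669, Gzma, Cd3e, Cd3d, Gata3, Gimap3, Fam160a2, Sh3bp4, Tox3, Ipo4, Timm8a1) were named after their values were seen. The members, patterns, and lists were chosen with earlier results of these data known. Some genes that the rule names are not reported here. Symbols came with the table, and 35968 of 36047 identifiers matched GENCODE M21 on GRCm38; shared transcript parts were found with BLAST 2.17.0 at 90% identity over at least 75 bases. Of the 96 called genes, 70 had a RefSeq promoter window. Tables and figures used pandas 2.3.3 and matplotlib 3.10.9 (Python 3.11.15). Alternatives were pseudocounts of 0.1 and 10, no filter or one at 50, rescaling by the 75th percentile or without ribosomal protein genes, quantile normalization, limma without the trend, array weights, the replicate number as a block, the arithmetic mean of the ends, the adjusted p alone, each library left out, and, added later, the T cell covariate.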

Additional observations from a re-analysis of the deposited data

Results flagged for a closer look

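In groups of 4 libraries, a library was singled out when its gap to the nearest other library, as a share of the range of the group, was above Dixon's 95% critical value, which chance alone gives in about 1 of 20 groups. Of 258 groups examined 19 met this. Replicate 4 of α4β7- CD22- was high in 7 of them, all genes or lists of other cells: Cd74 at 3365 normalized counts, H2-Aa at 809, H2-Eb1 at 925, and Cdh5 at 74.6, and summed counts of 6525 for the excluded gate genes, 7838 for the macrophage and monocyte markers, and 3886 for the dendritic cell markers. None of these was called, and without this library 32 genes were higher and 53 lower than the mean of the ends.

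Among called genes, Osm was high in α4β7+ replicate 1 (628 normalized counts), Gpr183 in α4β7- CD22- replicate 3 (1912), Idi1 in α4β7- CD22- replicate 2 (2905), and Itgb7 in CD22+ replicate 4 (285). In CD22+ replicate 3, Pax5 stood at 83.0, Slc12a7 at 311, and Defa22 at 245 normalized counts. Defa22 was also singled out in α4β7- CD22- replicate 3, at 5.21 normalized counts with the other libraries listed at 0, and Lilra6 was low in α4β7+ replicate 4 (5547). The mast cell and basophil sum was low in α4β7+ replicate 2 (826). The weighted position by library was low in α4β7- CD22- replicate 3, at 65.14% over the rises and 69.28% over all genes called between the ends.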

How the results depend on the processing

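The share of genes called between the ends that were past the midpoint in the intermediate subset, 85.35% as reported, stayed between 82.58% and 87.4% with each library left out in turn and was 83.65% on the count scale. The counts of called genes stayed within 1.5 times of 40 higher and 56 lower under other pseudocounts, filters, scalings, array weights, and without the trend. They were 102 and 85 by the adjusted p alone, 10 and 140 against the arithmetic mean of the ends, where the peak and dip tests were not run (24 dips and 2 peaks by shape, against 14 and 1), and 5 and 5 with the T cell covariate. Called members of the pathway lists, 22 in all, were 37, 3, and 12 with the arithmetic mean, the T cell covariate, and limma without the trend. With each library left out, 23 to 48 genes were higher, 33 to 57 lower, 12 to 23 list members called, 0 to 1 passed the dip test (1 without α4β7- CD22- replicate 2) and 0 passed the peak test. Of 36 named genes called, 2, among them Tnfaip3, were called in every fit, and 35 kept their sign; Ptger3 turned to -0.18 with the arithmetic mean. With the replicate number as a block, 45 genes were higher and 64 lower, 87 of them among the 96; Ccl4 and Itgae gained a call and Il27 lost it. Same-numbered libraries correlated at 0.135 to 0.203 between the intermediate subset and CD22+, at 0.043 to 0.137 between it and α4β7+, and from -0.0586 between the ends, best with their own number in 4, 4, and 2 of 4 pairs. The labels do not say whether same-numbered libraries came from the same mice. Not every correlation was over 0.1, and the main fit did not pair the libraries. That limit is no test of pairing, and the best partners leave shared pools possible. If the pools were shared, the fit with the block is the one that takes account of it. The median departure of all genes was at most 0.022 under the rescalings, against 0.00381. Departures of genes near the floor of 3 reads are the least precise.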
